A study of Mus musculus with 90 samples.

Results

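The 8 complement genes described here were C1ra and C1s1 (mouse C1r and C1s), Serping1 (C1 inhibitor), C4b, C3, Cfb (factor B), Cd55 and Cd59a, found by symbol in a count table of 53697 gene rows; all 8 were present. The table held 90 samples of 2 mouse tumour lines, YUMM2.1 melanoma and CT26 colon carcinoma, each in 15 groups of 3 replicates. Control cultures are labelled as BSA without IFNγ and were harvested at 0, 1, 2 and 3 weeks, those at 0 weeks being called untreated below, and the others received interferon gamma (IFNγ) at 50 IU/mL. Naive cells received IFNγ for 2 h or 24 h. Other cultures were kept in IFNγ for 1, 2 or 3 weeks and were harvested without rechallenge or 2 h or 24 h after fresh IFNγ. Both lines are established lines grown in dishes, so no host cells were present. RNA was counted by 3′ digital gene expression, which reads the ends of transcripts, and values are given as counts or as CPM, the counts scaled by each sample's total. Nothing in the labels says that replicates came from separate cultures beyond triplicate experiments, so p-values measure the spread between these samples.

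Complement is a cascade of plasma proteins that tags and lyses cells. In the classical pathway, C1q binds antibody on a surface and activates the serine proteases C1r and C1s, and C1s cleaves C4 and C2 to build the enzyme that cleaves C3. In the alternative pathway, factor B supplies the protease that cleaves C3. C1 inhibitor inactivates C1r and C1s, CD55 takes apart the enzymes that cleave C3, and CD59 blocks assembly of the membrane attack complex, so host cells that carry them are shielded. The liver makes most circulating complement, and IFNγ is known to raise some complement genes in other cells.

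The total of a YUMM2.1 sample lay between 274719 and 3161276 counts and that of a CT26 sample between 295157 and 2205285, so 1 count was often close to 1 CPM. Irf1, which IFNγ is known to induce, was higher in all 5 comparisons of IFNγ with control in both lines. Of the melanocyte markers, Sox10 and S100b were measured in YUMM2.1 at 28.6 and 78.3 CPM on average, and Tyrp1 was at 0. The other melanocyte markers were low, and Mitf (2.00 against 2.69 CPM), Tyr (0.249 against 0.418 CPM) and Dct (0.893 against 2.55 CPM) were lower on average in YUMM2.1 than in CT26. Of the epithelial markers, Krt18 and Krt20 were measured in CT26 at 16.5 and 56.2 CPM, while Krt19, Epcam, Cdh1, Cldn4 and Vil1 were at 0. Of the 8 macrophage markers, Adgre1 and C1qa were at 0 in both lines, and in YUMM2.1 the list summed to 5.77 to 13.6 CPM over the control groups and 3.99 to 16.4 CPM over the IFNγ groups. In bulk RNA, fewer cells that express a gene and less RNA per cell cannot be told apart.

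Among the 8 members, 4 held nearly all counts. CT26 held C1s1 (429 counts over 45 samples), Serping1 (279) and C1ra (179), which were at 6, 0 and 6 counts in YUMM2.1. YUMM2.1 held Cd59a (1958 counts), which was at 43 counts in CT26. Its neighbouring copy Cd59b, which is not a member, went the other way, with 4 counts in YUMM2.1 and 168 in CT26. C4b was close to the limit of detection in both lines, and C3, Cfb and Cd55 were at or next to 0 throughout.

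C1ra and C1s1 lie side by side on chromosome 6, at chr6:124512405-124523443 (plus strand) and chr6:124530345-124542359 (minus strand) of GRCm38, with 6901 bases between them. Because this pair of neighbours acts in 1 enzyme complex and had unlike levels across the CT26 cultures, the sequences just upstream of their starts are shown, with that of Cd59a, the member that passed the filter on low counts in YUMM2.1. The windows of 250 bases come from RefSeq models on GRCm38.p6, are written 5′ to 3′ on the gene's strand and end at the base before the start. They span chr6:124512371-124512620 for C1ra, chr6:124542360-124542609 for C1s1 (the upstream one of 2 starts) and chr2:104095551-104095800 for Cd59a. RefSeq places the C1ra start inside the gene span given above, so that window overlaps the span. Capitals mark a match to an interferon-stimulated response element (ISRE, searched as GAAANNGAAA on both strands).
C1ra: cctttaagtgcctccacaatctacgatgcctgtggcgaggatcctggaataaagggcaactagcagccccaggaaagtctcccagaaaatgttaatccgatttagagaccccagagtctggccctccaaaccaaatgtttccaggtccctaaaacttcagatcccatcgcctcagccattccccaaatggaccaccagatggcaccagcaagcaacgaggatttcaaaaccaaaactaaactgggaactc
C1s1: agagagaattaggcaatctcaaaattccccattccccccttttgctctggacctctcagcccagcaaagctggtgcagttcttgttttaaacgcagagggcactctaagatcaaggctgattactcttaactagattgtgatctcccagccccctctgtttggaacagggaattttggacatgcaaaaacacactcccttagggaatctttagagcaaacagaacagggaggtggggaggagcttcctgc
Cd59a: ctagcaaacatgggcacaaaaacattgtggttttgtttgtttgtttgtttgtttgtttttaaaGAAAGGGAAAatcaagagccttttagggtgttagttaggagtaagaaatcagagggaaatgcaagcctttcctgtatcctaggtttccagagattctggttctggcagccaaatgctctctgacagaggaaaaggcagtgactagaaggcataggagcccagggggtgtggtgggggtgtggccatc

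The 3 motifs named below were searched for on both strands, from 250 bases upstream to 50 bases downstream of each start, as letters only. Promoter entries were found for 5 of the 8 members (C3, C1ra, C1s1, Cd55 and Cd59a); C4b, Cfb and Serping1 had none. The Cd59a window held the ISRE match at positions -187 to -178, and 3.44% of 32851 promoters held one. The gamma-activated site (GAS, searched as TTCNNNGAA) matched once, in C1ra at +33 to +41 after the start, in capitals here with 8 bases on either side: atgcttcaTTCCCTGAAacattcct. A GAS match was held by 8.30% of promoters. No match to an NF-kB site (searched as GGGANNTTCC, held by 1.47%) was found in any of these members, and C1s1, C3 and Cd55 held none of the 3 motifs. For C1s1, the member called most often, this says only that these letters are not in the window.

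C1s1, which encodes the protease that cleaves C4 and C2, was the member called most often with IFNγ. In CT26 all 33 samples with IFNγ held C1s1 counts, 398 in all, against 31 counts in 11 of 12 control samples. Pooled, these were 10.4 and 1.71 CPM. Across the 15 groups the mean ranged from 0.800 CPM in the 1-week control to 24.1 CPM at 24 h of rechallenge after 1 week. The plot of CT26 values by sample shows C1s1 with its neighbour C1ra and its inhibitor Serping1.

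**Figure D1:**
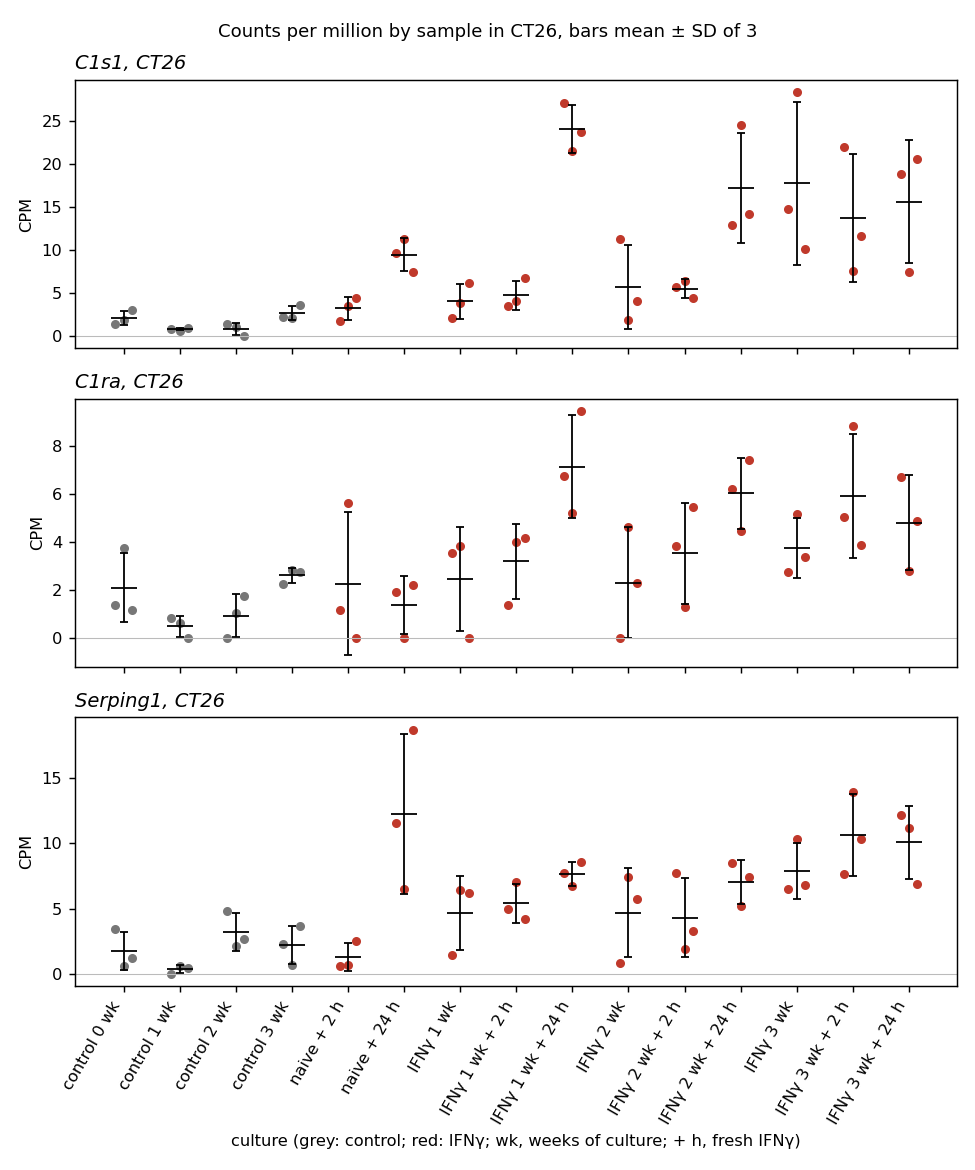
CPM of C1s1, C1ra and Serping1 in CT26 (y axis, linear, one scale per gene) in each of 15 cultures (x axis). Points are samples, grey for control and red for IFNγ, and bars are the mean ± SD of 3. C1s1 reached 24.1 CPM at 24 h of rechallenge after 1 week and stayed at or under 3.66 CPM in every control sample.

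In untreated CT26 cells C1s1 stood at 1.37, 1.88 and 2.98 CPM (2, 3 and 5 counts). After 24 h of IFNγ in naive cells it stood at 9.63, 11.3 and 7.47 CPM (5, 7 and 10 counts). Every treated sample lay above every control sample, as did 8.18% of all genes tested in this comparison. The difference was 2.08 on the log2 scale (SE 0.58, adjusted p = 0.0458, edgeR quasi-likelihood test with Benjamini-Hochberg adjustment), and 1.77% of all genes were called higher. This call was at the edge of the threshold and passed in 2 of 9 alternative analyses. C1s1 entered the test through groups with IFNγ, since its control levels were low. When all genes were tested without the filter on low counts, the adjusted p was 0.0618. It was lost when any 1 replicate was left out (adjusted p = 0.381, 0.403 and 0.0758 without replicates 1, 2 and 3). The treated samples were shallower, at 519097 to 1337965 total counts against 1458270 to 1677329, and the part of depth was not tested. At 2 h the level was 3.23 ± 1.32 CPM (SD, n = 3) and the difference did not pass (0.66, SE 0.62, adjusted p = 1), with 0.235% of genes called higher.

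After 3 weeks of continuous exposure C1s1 was again above its controls. At 3 weeks of IFNγ it stood at 14.8, 28.4 and 10.2 CPM (16, 22 and 3 counts), against 2.28, 2.13 and 3.66 CPM in the 3-week controls. The groups did not overlap, as for 17.8% of all genes in this comparison, and the difference was 2.50 (SE 0.50, adjusted p = 0.000642), where 3.44% of all genes were called higher. This call passed in 9 of 10 alternatives and was lost without replicate 2 (1.93, adjusted p = 0.101). Scaling to library totals in place of TMM moved the median of all genes by 0.20 in this comparison and gave 2.71 for C1s1. The 3-week IFNγ cultures were also shallower, at 295157 to 1080409 total counts against 1318011 to 2183005 in their controls. Without the samples under 25% of the median total the difference was 2.65.

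At 1 and 2 weeks C1s1 was also above its controls in all 3 samples, on fewer counts. At 1 week it stood at 2.14, 3.86 and 6.20 CPM against 0.857, 0.636 and 0.907 CPM, a difference of 1.84 (SE 0.84) that did not pass (adjusted p = 0.621). At 2 weeks it stood at 11.3, 1.85 and 4.03 CPM against 1.38, 1.06 and 0 CPM, a difference of 2.52 (SE 0.75, adjusted p = 0.0780). The 2-week samples were spread over a wide range, with the highest far from the others. Non-overlap of this kind was seen for 8.27% of genes at 1 week and 12.1% at 2 weeks, and 0.658% and 0.928% of genes were called higher. From 2 to 3 weeks of IFNγ the level rose by 1.59 (SE 0.47, adjusted p = 0.0488), a change in which 1 of the 3-week samples lay within the 2-week range and which passed in 3 of 9 alternatives. Without replicate 2 it was 0.81 (adjusted p = 0.706) and without replicate 3 it was 1.45 (adjusted p = 0.161). Scaling to library totals moved the median of all genes by 0.14 and gave 1.73. In this step 1.6% of all genes were called higher. From 1 to 2 weeks the difference was 0.75 (SE 0.63) and did not pass (adjusted p = 0.874), with 0.141% of genes called higher.

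Fresh IFNγ raised C1s1 again after 1 week. At 24 h of rechallenge the 3 samples stood at 27.1, 21.6 and 23.7 CPM (28, 29 and 25 counts), all above the 2.14 to 6.20 CPM without rechallenge, as for 9.04% of all genes. The difference was 2.76 (SE 0.53, adjusted p = 0.00109), and 0.928% of all genes were called higher. It passed in 7 of 8 alternatives that gave an adjusted p, was lost without replicate 1 (2.16, adjusted p = 0.207), and DESeq2 gave none. After 2 weeks the 24 h samples stood at 13.0, 24.6 and 14.2 CPM, all above the 1.85 to 11.3 CPM without rechallenge (8.01% of genes), but the difference of 1.58 (SE 0.43) did not pass (adjusted p = 0.0863). Without replicate 1 it was 2.60 and passed (adjusted p = 0.0368). After 3 weeks they stood at 18.9, 7.45 and 20.6 CPM, overlapping the 10.2 to 28.4 CPM without rechallenge, and the difference was -0.26 (SE 0.43, 95% interval -1.09 to 0.58, adjusted p = 0.977).

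The levels at 24 h of rechallenge after 1, 2 and 3 weeks were 24.1 ± 2.77, 17.3 ± 6.37 and 15.6 ± 7.15 CPM (SD, n = 3), and the samples of each week overlapped those of the week after. Without rechallenge the means of the same weeks were 4.07, 5.72 and 17.8 CPM. The 24 h response after 3 weeks less that of naive cells was -2.33 (SE 0.72, unadjusted p = 0.00238), which did not pass after adjustment (adjusted p = 0.151, with 1.09% of genes called lower). After 2 weeks it was -0.49 (SE 0.71, adjusted p = 0.853). After 1 week it was 0.68 (SE 0.88, adjusted p = 0.856, with 0.0352% of genes called higher). At 2 h of rechallenge C1s1 differed by 0.44, -0.02 and -0.36 after 1, 2 and 3 weeks, and none passed. Against the controls of the same week, the pooled 24 h rechallenge counts were 82 to 4, 77 to 3 and 43 to 14. The last is a ratio of 5.32 (95% exact binomial interval 2.86 to 10.5, counting error only).

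C1ra encodes C1r, which activates C1s. It did not pass the filter on low counts in CT26 alone, so its values are described. Its pooled level was 3.93 CPM in samples with IFNγ and 1.55 CPM in controls (151 and 28 counts), a ratio of 2.54 (1.69 to 3.95, counting error only), against 6.05 (4.19 to 9.02) for C1s1. In naive cells at 24 h C1ra held 4 counts against 10 in the controls, at 1.93, 0 and 2.24 CPM against 1.37, 3.76 and 1.19 CPM. At 24 h of rechallenge after 1 week it stood at 6.77, 5.21 and 9.48 CPM and after 2 weeks at 6.21, 4.47 and 7.45 CPM, the highest group means. The 1-week and 2-week controls held 2 and 3 counts. When all genes were tested without the filter, the differences of IFNγ from control ran from -0.43 at 24 h in naive cells to 2.56 at 1 week (adjusted p = 0.791), and none passed.

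Part of the C1ra and C1s1 sequence is shared with a near-identical copy. C1rb and C1s2 lie on the same stretch of chromosome 6. They share 56.9% and 33.5% of the 31-base words of the C1ra and C1s1 transcripts, and 23.4% and 37.6% in the last 500 bases, where 3′ reads fall. C1rb held 29 counts and C1s2 34 counts in CT26, so the split of counts within each pair is uncertain. C1s2 counts were 30 with IFNγ and 4 without, a ratio of 3.53 (1.24 to 13.8, counting error only).

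Serping1, which encodes the inhibitor of C1r and C1s, also rose in CT26. It lies at chr2:84765387-84775444 (minus strand). All 33 samples with IFNγ held counts (245), as did 11 of 12 controls (34). Pooled, these were 6.37 and 1.88 CPM. In untreated cells it stood at 3.43, 0.627 and 1.19 CPM (5, 1 and 2 counts), and after 24 h of IFNγ in naive cells at 11.6, 6.47 and 18.7 CPM (6, 4 and 25 counts). The groups did not overlap, as for 8.18% of all genes in this comparison. The difference was 2.88 (SE 0.61, adjusted p = 0.00186) beside the same 1.77% of all genes, in the same shallower samples. It passed in 7 of 8 alternatives that tested it and was lost without replicate 3 (2.14, adjusted p = 0.252). Serping1 also entered the test through groups with IFNγ, and without the filter the adjusted p was 0.000613. At 2 h of IFNγ it stood at 0.599, 0.705 and 2.50 CPM, and that difference did not pass (-0.32, SE 0.80, adjusted p = 1).

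Under continuous IFNγ the mean of Serping1 lay above that of its controls in each week, but no week passed. At 1 week it stood at 1.43, 6.44 and 6.20 CPM against 0, 0.636 and 0.453 CPM (2.92, SE 0.95, adjusted p = 0.273). At 2 weeks the groups overlapped, at 0.867, 7.41 and 5.76 CPM against 4.83, 2.11 and 2.67 CPM (0.40, SE 0.62, adjusted p = 0.908). At 3 weeks it stood at 6.48, 10.3 and 6.78 CPM against 2.28, 0.710 and 3.66 CPM (1.5, SE 0.64, adjusted p = 0.151).

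No rechallenge comparison passed for Serping1. After 24 h the differences were 0.89, 0.57 and 0.37 at 1, 2 and 3 weeks, and after 2 h they were 0.38, -0.06 and 0.40. The adjusted p values were 0.760 or above. Over these 6 comparisons, in the order 24 h and then 2 h after 1, 2 and 3 weeks, 0.928%, 0.599%, 0%, 0.364%, 0.294% and 0.0117% of all genes were called higher. The 24 h response after 2 and 3 weeks less the naive response was -2.31 (SE 0.83, adjusted p = 0.244) and -2.51 (SE 0.85, adjusted p = 0.236), where 0.822% and 1.09% of genes were called lower. After 1 week it was -1.99 (SE 0.93, adjusted p = 0.457). Of the 6 such tests of C1s1 and Serping1, edgeR called 0, with 4 at an unadjusted p under 0.05, and DESeq2 called 0 and gave no adjusted p for 2. No control sample exceeded 3.66 CPM of C1s1 or 4.83 CPM of Serping1, so both passed the filter on low counts through groups with IFNγ. Without the filter C1s1 at 24 h in naive cells had an adjusted p of 0.0618 and did not pass. In the control cultures against 0 weeks, edgeR called 0 of 6 tests of these genes, with 0 at an unadjusted p under 0.05 and 0 by DESeq2. At 1, 2 and 3 weeks of control culture 0.0117%, 0.247% and 0.916% of all genes were called.

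Markers of other cells were checked beside these changes. Of the 8 macrophage markers, 2 averaged at least 1 CPM in CT26. Their summed level ranged from 2.51 to 4.96 CPM over the 4 control groups and from 3.83 to 8.89 CPM over the 11 IFNγ groups. Adgre1, Itgam, Fcgr1 and C1qa were at 0. The epithelial markers, led by Krt18 and Krt20, ranged from 61.4 to 72.2 CPM in controls and from 57.1 to 127 CPM with IFNγ, and the melanocyte markers from 4.27 to 7.53 CPM and from 4.52 to 10.0 CPM. The hepatocyte markers summed to 0 to 0.421 CPM, with Alb, Serpina1a, Fgb and Ahsg at 0. The fibroblast markers ranged from 57.8 to 120.3 CPM in controls and from 63.5 to 124 CPM with IFNγ. The part of these markers in the C1s1 and Serping1 results was not tested.

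C4b encodes C4, a substrate of C1s. It lies at chr17:34728380-34743882 (minus strand). It held 24 counts in YUMM2.1, 23 of them in the 33 samples with IFNγ and 1 in the 12 controls. In CT26 it held 30 counts, 26 with IFNγ and 4 without. The pooled level in YUMM2.1 was 0.501 CPM with IFNγ and 0.0418 CPM without, and in CT26 it was 0.676 CPM with and 0.221 CPM without. The ratios were 12 (1.95 to 494) and 3.06 (1.06 to 12.1), with intervals for counting error only. In YUMM2.1 the counts fell in 12 of 33 IFNγ samples, and 5 of them were in 1 sample at 24 h of rechallenge after 2 weeks. In CT26 they fell in 18 of 33 samples, with at most 3 counts in a sample. In neither line did C4b pass the filter on low counts, and no comparison passed when it was tested without the filter. C4a, whose transcripts hold 48.3% of the 31-base words of C4b, held 14 counts with IFNγ and 0 without in YUMM2.1, and 6 and 2 in CT26, so C4 counts may be split between the genes.

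**Figure D2:**
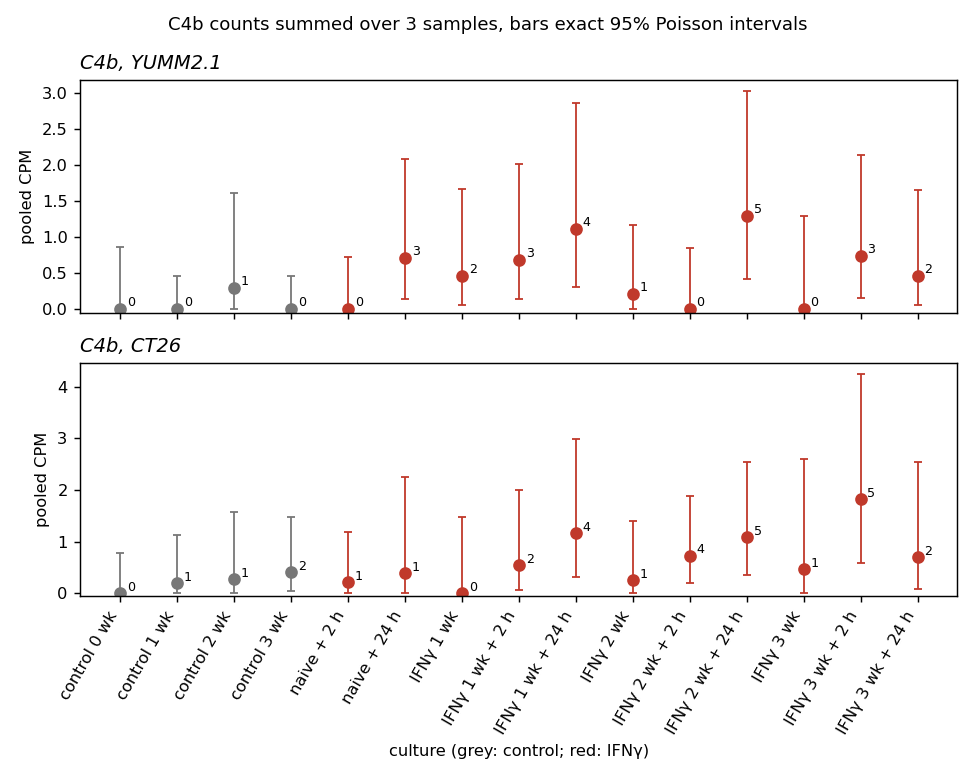
C4b counts summed over the 3 samples of a group and divided by their summed total, in CPM (y axis, linear) for each culture of YUMM2.1 and CT26 (x axis). Bars are exact 95% Poisson intervals for counting error, numbers are counts, grey is control and red is IFNγ. The control groups hold at most 2 counts each and the IFNγ groups 0 to 5.

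C3, the protein on which the pathways converge, and Cfb were next to 0. In YUMM2.1 both were at 0 counts of 69880769, which allows a level of up to 0.0429 CPM. In CT26 each held 1 count in 45 samples, both in samples with IFNγ. Cd55 was at 0 in both lines, with the same limit in YUMM2.1 and one of 0.0531 CPM in CT26. These limits cover counting error only. C1qa, C1qb and C1qc, the genes of C1q, were also at 0 in both lines, with the same limits, while C1s1 and C1ra held counts in CT26.

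Cd59a, which encodes the inhibitor of the membrane attack complex, was the member that passed the filter in YUMM2.1. It lies at chr2:104095801-104115354 (plus strand). Every one of the 45 samples held counts, from 14.5 to 39.3 CPM with a median of 28.5 CPM. Group means ranged from 19.1 CPM in naive cells after 24 h of IFNγ to 31.8 CPM at 24 h of rechallenge after 1 week, a ratio of 1.67.

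**Figure D3:**
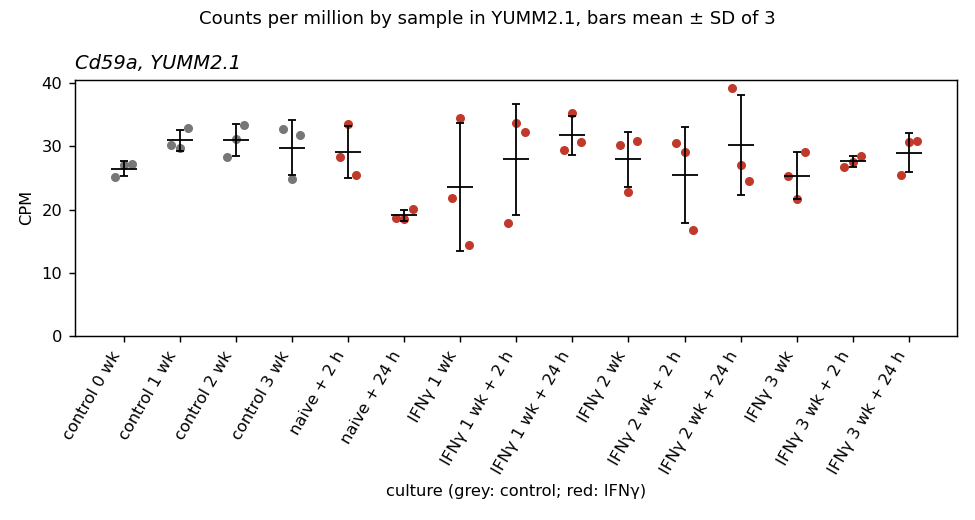
CPM of Cd59a in YUMM2.1 (y axis, linear, from 0) in each of 15 cultures (x axis). Points are samples, grey for control and red for IFNγ, and bars are the mean ± SD of 3. Naive cells after 24 h of IFNγ, at 19.1 CPM, are the lowest group, and the other group means lie between 23.6 and 31.8 CPM.

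After 24 h of IFNγ naive YUMM2.1 cells stood at 18.7, 18.6 and 20.1 CPM, below the 25.2, 27.1 and 27.3 CPM of the untreated cells. The groups did not overlap, as for 4.78% of all genes, and the difference was -0.48 (SE 0.25, unadjusted p = 0.0626, adjusted p = 0.749). It did not pass. At 1, 2 and 3 weeks the differences were -0.33, -0.14 and -0.37, and their 95% intervals ran from -0.85 to 0.32 in all. edgeR called 0 of 5 tests of IFNγ against control and 0 of 6 of rechallenge in YUMM2.1, with 0 and 0 at an unadjusted p under 0.05 and 0 and 0 by DESeq2. In these comparisons 0.24%, 0.886%, 0.73%, 1.12% and 0.97% of all genes were called at 2 h, 24 h, 1, 2 and 3 weeks. Of the 6 rechallenge comparisons, those at 2 h after 1, 2 and 3 weeks had 0.615%, 0.428% and 1.08% of all genes called, and those at 24 h had 1.42%, 0.615% and 0%. The 24 h response of Cd59a after 1, 2 and 3 weeks less that of naive cells was 0.77, 0.51 and 0.73. Of these 3 edgeR tests 0 were called and 2 had an unadjusted p under 0.05, as did 681, 430 and 638 of all 9589 genes in the same contrasts. The 1-week samples without rechallenge were the most spread, at 21.9, 34.5 and 14.5 CPM. In CT26 it held 29 counts with IFNγ and 14 without, a ratio of 0.976 (0.499 to 2.00, counting error only). Cd59b, the neighbouring copy 4613 bases away, shares 8.23% of the 31-base words of Cd59a (2.86% in the last 500 bases). Cd59b held 4 counts in YUMM2.1 and 168 in CT26.

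The plot of fold changes sets the members beside the other complement genes that passed the filter. Of 55 other complement genes listed by role, 6 passed in each line. C1qbp and Calr (which bind C1q), Cr1l (Crry, a rodent membrane inhibitor of the C3-cleaving enzymes) and Csmd2 passed in both lines. C3ar1 (the receptor for C3a) and Cd93 passed in YUMM2.1, and Clu and Cd59b passed in CT26. None was called in the 5 comparisons of IFNγ with control in either line. Of 30 tests in each line, 2 had an unadjusted p under 0.05 in YUMM2.1 and 0 in CT26, and DESeq2 called 0 in both. Both in YUMM2.1 were C3ar1, named here after its values were seen. At 3 weeks it stood at 3.44 CPM against 9.74 CPM in controls, a difference of -1.31 (SE 0.60, adjusted p = 0.423), and at 1 week the difference was -1.17 (adjusted p = 0.775).

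**Figure D4:**
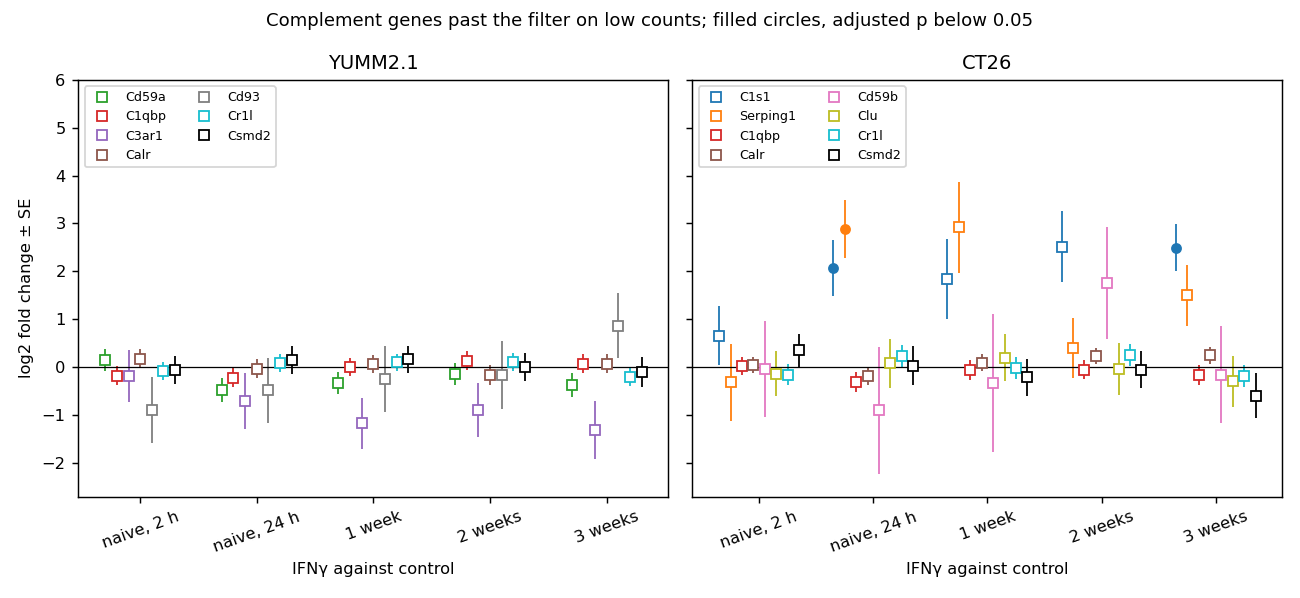
Log2 fold change of IFNγ against control (y axis, with SE) for the complement genes that passed the filter on low counts in YUMM2.1 and CT26, in 5 comparisons (x axis). Filled circles passed an adjusted p of 0.05 and open squares did not. In CT26, C1s1 and Serping1 are above 0 in every comparison from 24 h on. C1s1 at 24 h and 3 weeks and Serping1 at 24 h are the filled points.

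Cr1l was measured in every group of both lines. In YUMM2.1 its group means lay between 49.1 and 75.5 CPM, and in CT26 between 28.5 and 45.9 CPM. Cd55, which acts on the same enzymes, was at 0. Without a single count were 4 of 9 lectin pathway genes, 5 of 7 terminal pathway genes and 7 of 10 fluid-phase regulators in YUMM2.1, and 5 of 9, 4 of 7 and 7 of 10 in CT26.

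Untreated cells of the lines were compared in a fit of all 90 samples, in which C1ra, C1s1, Serping1 and Cd59a passed the filter and all 4 were called. No untreated sample exceeded 3.76 CPM of C1ra, 2.98 CPM of C1s1 or 3.43 CPM of Serping1, so these entered the fit through CT26 groups with IFNγ. Cd59a, at no more than 3.39 CPM in any CT26 sample, entered through YUMM2.1. Each was thus tested because it was high in 1 line, so the count of calls is not evidence beyond the levels given here. Across all genes 25.9% were called higher and 20.1% lower in YUMM2.1, so calls were common. Cd59a was higher in YUMM2.1 at 26.5 ± 1.17 CPM against 0.666 CPM in CT26, a difference of 5.04 (SE 0.49, adjusted p = 3.42e-14). Scaling to library totals moved the median of all genes by 0.16 and gave 5.19. Its copy Cd59b held 0 counts in YUMM2.1 and 12 in CT26, at least 3.63-fold higher in CT26 with a floor of 3 counts. C1s1 held 1 count in YUMM2.1 and 10 in CT26, a ratio of 9.08 (95% interval 1.29 to 394, counting error only). C1ra held 0 and 10 counts, at least 3.03-fold higher in CT26 with a count of 3 set as the floor over the group. Serping1 held 0 and 8 counts, at least 2.42-fold higher. When only these 2 groups were fitted, Cd59a was called, and C1ra, C1s1 and Serping1 did not pass the filter and so were not tested. When a replicate was left out, 1 to 2 of the 4 calls remained.

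The response to IFNγ itself was compared between the lines in 5 interaction contrasts. edgeR called 0 of 20 tests of members, with 0 at an unadjusted p under 0.05 and 0 by DESeq2, which gave no adjusted p for 16. At 2 h, 24 h, 1, 2 and 3 weeks 0%, 0.087%, 0.058%, 0.28% and 0.106% of all genes were called. This does not show that the lines responded alike.

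Over the 15 groups of CT26, the genes whose mean log2 CPM followed C1s1 most closely were Gbp4 (Pearson r = 0.961), Idnk (0.958) and Gbp2 (0.95), among 8516 genes. Over the 15 groups of YUMM2.1, those nearest to Cd59a were Abhd4 (0.876), Med27 (0.816) and 9930012K11Rik (0.781), among 9589 genes. These are descriptions over group means that share libraries and depth.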

How the data were processed

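RNA from triplicate experiments was measured by 3′ digital gene expression. The values the authors deposited are raw whole-number counts for single samples, in 1 table, neither normalized nor pooled, and the submitters' processing notes name Salmon 0.13.1 and the mm10 build. Salmon usually gives estimates that are not whole, so the values may have been rounded, and intervals that take them as reads rest on that. The study's methods set samples of both lines aside as outliers, more of them from CT26, the line in which C1s1 and Serping1 were called. Which ones is not given in the sources used here, and all 90 were kept. All columns were matched to samples by the labels. Identifiers were matched to symbols for 53668 of 53697 gene rows. Reads of near-identical genes may be split by such counting, and low counts limit precision.

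Counts were analysed with edgeR 4.0.16 in R 4.3.3: filterByExpr by group, TMM, a quasi-likelihood model with 1 term per group (15 in a line, 30 for comparisons between lines) and Benjamini-Hochberg adjustment over all tested genes (9589 in YUMM2.1, 8516 in CT26, 10339 in both), with a threshold of 0.05. Fold changes are on the log2 scale. CPM used plain totals. Pooled counts have exact 95% intervals, and a count of 0 allows up to 3 counts. These cover counting error only.

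On simulated data with 200 genes changed by 2 on the log2 scale at 24 h in naive cells, 75.5% of them were recovered among 9242 genes in YUMM2.1 and 79.5% among 8192 in CT26. Above the median level 100% were recovered in both lines, so the missed genes were the lower ones. False calls numbered 7 in YUMM2.1 and 4 in CT26. Recovery at the low counts of C1s1 and Serping1 was not measured apart. Alternatives were DESeq2 1.42.0, plain totals, no filter, a fit of the compared groups alone, a replicate block, leaving out each replicate, leaving out shallow samples (below 25% of the line's median), and the 0-week control. The members, the complement and marker lists and the named genes (all members, complement genes called, and the 3 genes nearest to the leading member of each line) were chosen with earlier results of these data known.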

Additional observations from a re-analysis of the deposited data

How the results depend on the processing

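Of 14 counts of calls, 10 kept within 1.5 times of their value under every alternative applied to them, and all 10 were counts of 0. Among them were 0 calls for Cd59a in YUMM2.1 and 0 calls for the other complement genes. Every count above 0 moved under at least 1 alternative. The 3 calls of IFNγ against control in CT26 became 1 when the compared groups alone were fitted, where Serping1 at 24 h in naive cells did not pass the filter and was not tested. They became 1 to 2 when a replicate was left out. The 1 call of rechallenge in CT26 became 0 with DESeq2, which gave no adjusted p for it. Without replicate 1 the count stayed at 1, but the call was C1s1 at 24 h after 2 weeks (2.60, adjusted p = 0.0368) in place of 24 h after 1 week (2.16, adjusted p = 0.207). The 1 call between weeks in CT26 became 0 with DESeq2, without the filter, in the compared groups alone and with the replicate block, and 0 to 1 when a replicate was left out. The 4 calls between untreated lines became 1 in the compared groups alone, where only Cd59a of these members passed the filter. They became 1 to 2 when a replicate was left out. Fewer samples entered the fits of the compared groups alone and those with a replicate left out. Apart from members that did not pass the filter in a fit, what caused these changes of calls was not tested. With the replicate block C1s1 at 24 h in naive CT26 cells had an adjusted p of 0.0527 and at 3 against 2 weeks 0.0524, so 2 of the 3 calls of IFNγ against control remained; the block changed no other call of a member. Samples were not paired by replicate number in the main fits. In 0 of 16 comparisons in each line were all correlations of same-numbered samples over 0.1. Single correlations reached 0.255 in CT26, so this does not show that the samples were unpaired. Direction reversed for 3 differences that had not passed: Cd59a at 2 weeks in YUMM2.1 against the 0-week control (0.10), Serping1 at 2 h in CT26 without replicate 1 (0.86, with -1.42 to 0.86 over the replicates left out), and Serping1 at 2 weeks in CT26 without replicate 2 (-0.14, with -0.14 to 1.31). C1ra and C4b did not pass the filter in either line alone, and the part of depth in this was not tested.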
